A study of Homo sapiens with 3 samples.

Results

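The 29 genes described here carry cells from acetyl-CoA to cholesterol, sense the sterol level of the endoplasmic reticulum (ER), or control the uptake, transfer and storage of cholesterol. They were taken by symbol from the deposited table, where all 29 were found among 13479 genes listed, and were ordered by their step in the pathway. Of 31 symbols looked for, 2 are older names of MSMO1 and SC5D. Values were tags from CAGE, an assay that reads the capped 5′ ends of RNAs. The cells were EBC-1, a cell line long grown from a human squamous carcinoma of the lung. There were 3 groups of 1 library each. In 2 of them cells had been electroporated with an siRNA against RAB11A, a GTPase that directs traffic through recycling endosomes, namely RAB11A siRNA 1 and RAB11A siRNA 2. In the other they had received a negative control siRNA. All come from 1 cell line, and the labels name no separate cultures within a group. The comparison asks how gene expression differs when RAB11A is suppressed. No difference below has a replicate check, and every standard error (SE) and interval covers the counting of tags alone.

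Cells make cholesterol by joining acetyl-CoA units into mevalonate, building isoprenoids from it, closing squalene into lanosterol and trimming lanosterol in the ER. When ER sterol is low, SCAP escorts the transcription factor SREBP2, the product of SREBF2, to the Golgi, where the proteases encoded by MBTPS1 and MBTPS2 release it. INSIG proteins hold SCAP in the ER when sterol is plentiful. SREBP2 then binds sterol regulatory elements, usually beside CCAAT boxes bound by NF-Y and GC boxes bound by SP1, in promoters of pathway genes. Isoprenoids from the same pathway are also attached to RAB proteins, which need them to bind membranes.

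Levels are in CPM, the unit that scales tags to equal library totals, where 1 tag is worth 0.04 CPM. The library totals implied by the CPM values ran from 24999968 to 24999972 tags. How these totals came to be nearly equal is not known here, and if tags had been drawn or scaled to them, the counting errors below would not be those of the sequenced reads. CAGE reads the capped 5′ end of a transcript and not its whole length, so levels do not scale with gene length. A log2 ratio is that of (CPM + 1) in the library named first over the other. All 29 were among the 10788 genes that averaged 5 CPM (125 tags) or more over the 3 libraries, and shares of all genes below refer to those. RAB11A itself stood at 7.48 CPM with siRNA 1, 22.7 CPM with siRNA 2 and 135 CPM with control siRNA, or 5.53% and 16.8% of control. Of 12 squamous markers looked up, only SFN, PERP and S100A2 matched a symbol in the values used here. TP63, SOX2 and KRT5 did not. Of 8 epithelial markers 6 were listed, and CDH1 and CLDN4 were not. EPCAM stood at 3.72 to 4.28 CPM and MUC1 at 0.32 to 0.92 CPM over the 3 libraries, both under the mean of 5 CPM. The keratins did not move together. KRT8 stood at 109% of control with siRNA 1 and 100.2% with siRNA 2, KRT18 at 123% and 102%, KRT19 at 160.4% and 139%, and KRT7 at 88.4% and 76.8%. The part of these differences in the results below was not tested. Of 6 mesenchymal, leukocyte and endothelial markers 3 were listed, with COL1A1 and COL1A2 at 1.04 to 2.28 CPM. The lysosomal membrane protein CD68 stood at 21.1 CPM with siRNA 1, 31.4 with siRNA 2 and 45.2 with control, and its part in the results below was not tested. No alveolar marker of 4 was listed.

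RefSeq promoter windows (GRCh38.p14) were available for 26 of the 29 genes, in 34 windows of 250 bases before an annotated start. They are RefSeq starts, not starts measured here. The windows of 4 enzyme genes among the highest ratios to control and of 2 regulators are shown, since SREBP2 and its partner NF-Y act at such sites. Capitals mark a sterol regulatory element core (TCACNCCAC) or a CCAAT box, which reads ATTGG on the other strand.
FDPS (chr1:155308616-155308865, plus strand): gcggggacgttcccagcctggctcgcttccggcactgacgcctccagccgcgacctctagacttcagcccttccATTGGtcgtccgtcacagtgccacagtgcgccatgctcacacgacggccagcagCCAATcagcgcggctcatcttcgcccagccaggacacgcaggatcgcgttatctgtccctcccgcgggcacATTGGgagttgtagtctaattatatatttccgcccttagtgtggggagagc
HMGCS1 (chr5:43313413-43313662, minus strand): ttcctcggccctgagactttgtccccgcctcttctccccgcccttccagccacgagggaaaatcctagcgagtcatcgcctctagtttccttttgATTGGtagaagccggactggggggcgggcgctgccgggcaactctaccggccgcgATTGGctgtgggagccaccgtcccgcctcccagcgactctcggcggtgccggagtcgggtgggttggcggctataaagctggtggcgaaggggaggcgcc
MSMO1 (chr4:165327419-165327668, plus strand): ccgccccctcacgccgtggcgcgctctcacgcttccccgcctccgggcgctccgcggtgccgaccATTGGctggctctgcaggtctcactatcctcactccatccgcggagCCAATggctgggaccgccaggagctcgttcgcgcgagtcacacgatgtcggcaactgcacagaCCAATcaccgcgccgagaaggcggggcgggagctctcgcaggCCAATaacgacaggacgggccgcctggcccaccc
EBP (chrX:48521558-48521807, plus strand): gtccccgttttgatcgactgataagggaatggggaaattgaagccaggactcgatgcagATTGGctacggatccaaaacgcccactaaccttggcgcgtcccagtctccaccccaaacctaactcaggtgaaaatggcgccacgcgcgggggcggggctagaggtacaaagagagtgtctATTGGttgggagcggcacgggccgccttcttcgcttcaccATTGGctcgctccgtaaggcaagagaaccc
SREBF2 (chr22:41832855-41833104, plus strand): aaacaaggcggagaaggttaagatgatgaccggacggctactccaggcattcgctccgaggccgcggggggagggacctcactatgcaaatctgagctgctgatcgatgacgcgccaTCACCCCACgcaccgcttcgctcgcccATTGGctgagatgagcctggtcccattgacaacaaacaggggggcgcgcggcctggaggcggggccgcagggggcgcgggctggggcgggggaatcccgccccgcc
MBTPS1 (chr16:84116943-84117192, minus strand): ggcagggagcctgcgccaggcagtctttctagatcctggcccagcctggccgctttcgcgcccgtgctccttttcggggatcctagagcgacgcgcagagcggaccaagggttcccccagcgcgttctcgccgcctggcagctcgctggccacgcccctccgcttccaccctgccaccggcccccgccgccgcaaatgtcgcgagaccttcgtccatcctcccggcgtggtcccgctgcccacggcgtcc

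Each motif was searched on both strands, and in the 34 windows no match overlapped a match to another of the 3 motifs. CCAAT boxes were found in 21 of the 34 windows (61.8%), against 33.6% of 10968 windows of genes tested and 32% of all 35116 windows. They were in at least 1 window of 19 of the 26 genes. FDPS and EBP each held 3, MSMO1 held 4, and the HMGCS1 window shown held 2, while the second HMGCS1 window held none. GC boxes (GGGCGG) were found in 82.4% of the windows, against 65.8% of windows of genes tested. The sterol element core was found in 1 window, that of SREBF2, starting 133 bases before the start and with a CCAAT box 106 bases before it. It occurred in 0.966% of windows of genes tested. The LBR, MBTPS1 and MBTPS2 windows held none of the 3 motifs. These are letter matches in short windows, and no binding was measured. Windows of 1 gene can overlap, as for HMGCS1, IDI1, SC5D and INSIG2.

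**Figure D1:**
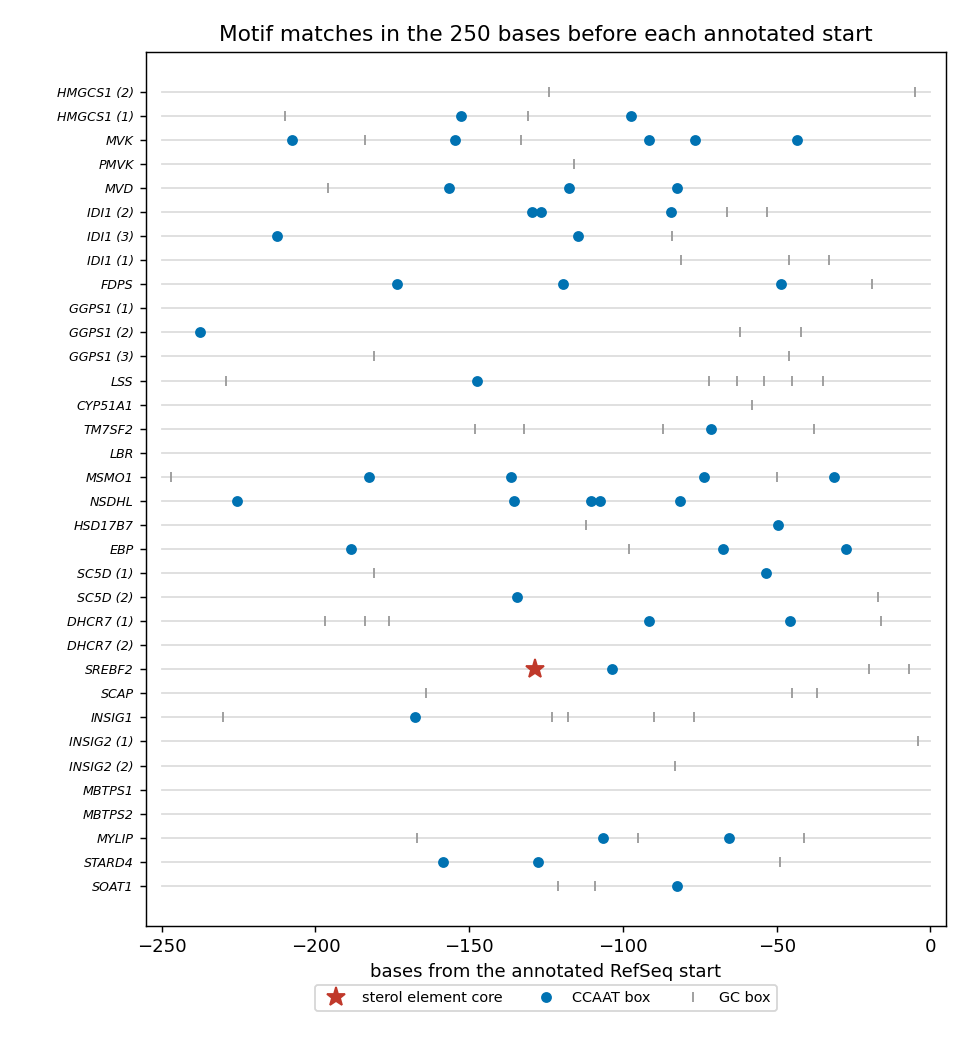
Matches to the sterol element core (star), CCAAT box (circles) and GC box (bars) by distance in bases from each annotated RefSeq start, for 34 windows of 26 genes ordered by pathway step, with numbers in brackets for genes with several starts. CCAAT boxes lie in 21 windows, and the only star is in SREBF2.

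The enzymes of cholesterol synthesis, counted here with GGPS1, stood above control in summed level with either siRNA. The summed level of the genes that sense sterol or process SREBP2 was slightly below control. Its genes lay on both sides of control, with INSIG1 and INSIG2 above and SREBF2, SCAP, MBTPS1 and MBTPS2 below. The 20 enzymes together stood at 1708 CPM with siRNA 1 (95% Poisson interval 1692 to 1724), 1684 CPM with siRNA 2 (1668 to 1701) and 1343 CPM with control (1329 to 1358). That was 127% of control with siRNA 1 and 125% with siRNA 2. The 6 sterol sensing genes together stood at 366, 375 and 391 CPM in the same order, or 93.5% and 95.9% of control. Without MBTPS1 the other 5 stood at 255 CPM with siRNA 1, 254 with siRNA 2 and 256 with control, or 99.8% and 99.3% of control. MBTPS1 was left out after its values were seen. The remaining sum joins opposite shifts, such as MBTPS2 at 80.2% and 94.2% of control and INSIG1 at 114% and 118%. After TMM scaling, which evens out the bulk of genes between libraries, all 6 stood at 95.3% of control with siRNA 1 and 99.3% with siRNA 2, and the 20 enzymes at 129.5% and 129.8%. In bulk RNA, more cells expressing a gene and more RNA per cell cannot be told apart.

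**Figure D2:**
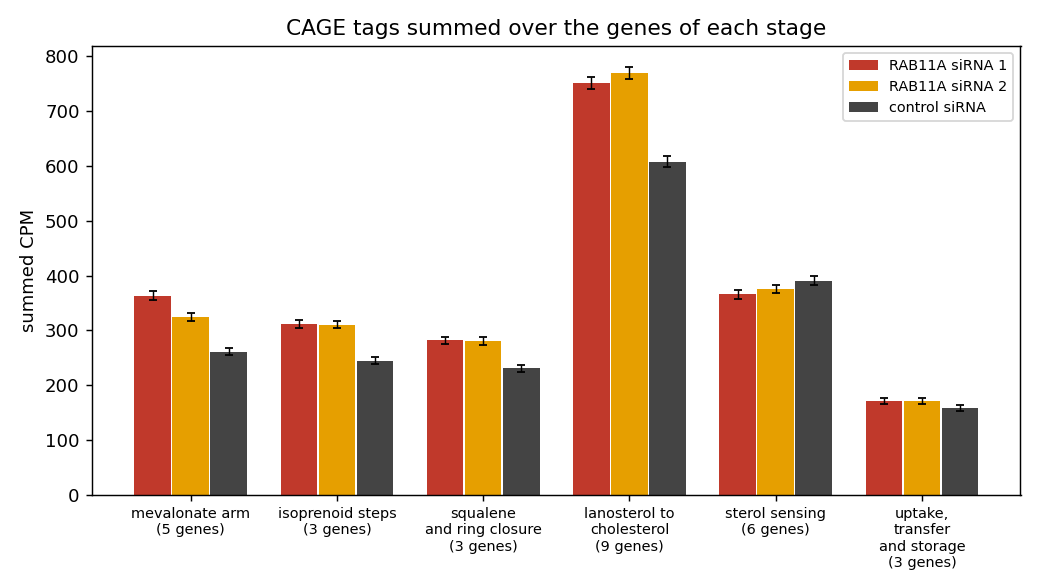
Bars give CPM summed over the genes of each stage for RAB11A siRNA 1, RAB11A siRNA 2 and control siRNA, 1 library each, with 95% Poisson intervals. In the 4 enzyme stages both siRNA bars stand above the control bar, and in the sterol sensing stage both stand below it.

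The median log2 ratio to control over the 29 genes was 0.21 with siRNA 1 and 0.23 with siRNA 2, against -0.03 and -0.04 over all 10788 genes. Of the 29, 23 were above control with siRNA 1, where 45.1% of all genes were. With siRNA 2, 23 were above control, where 41.4% of all genes were. Both ratios use the same control library, so they are not independent of each other. The members were chosen with earlier results of these data known. The medians and counts here and in the next paragraph are therefore not independent support for a shift. At least 1.3-fold higher were 7 of the 29 with siRNA 1, against 7.79% of all genes, and 6 with siRNA 2, against 4.26%. At least 1.3-fold lower were 0 of the 29 with either siRNA, against 8.27% and 7.3% of all genes. No member was 2-fold from control, where 0.371% of all genes were higher and 0.519% lower with siRNA 1, and 0.195% and 0.269% with siRNA 2. The split of all genes depended on scaling. With siRNA 1, after TMM scaling, 49.4% of all genes were above control, 8.95% were 1.3-fold higher and 6.92% lower, and 7 of the 29 were 1.3-fold higher. With siRNA 2, after TMM scaling, 50.7% of all genes were above control, 5.68% were 1.3-fold higher and 5.12% lower, and 8 of the 29 were 1.3-fold higher.

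The counting interval of the ratio lay above 0 for 19 of the 29 genes with siRNA 1 (25.4% of all genes) and below 0 for 2 (31.9%). With siRNA 2 it lay above 0 for 19 (20.6%) and below 0 for 4 (33.3%). An exact binomial test on the tags, Benjamini-Hochberg adjusted over all genes at 0.05, compares these libraries and not the conditions. It called 18 of the 29 higher and 2 lower with siRNA 1, where it called 23.4% and 29.5% of all genes. With siRNA 2 it called 19 higher and 4 lower, where it called 18.4% and 30.3%. A limma fit of both siRNA libraries as 1 group against the single control library called 0 of the 29 in either direction at an adjusted p of 0.05, where it called 0.0556% of all genes higher and 0.0834% lower. At an unadjusted p under 0.05 limma called 10 of the 29 higher (5.78% of all genes) and 0 lower (8.22%). That fit takes its residual spread from the difference between siRNA 1 and siRNA 2, not from separate cultures of 1 condition. It assumes that the control library varies as the siRNA libraries do.

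**Figure D3:**
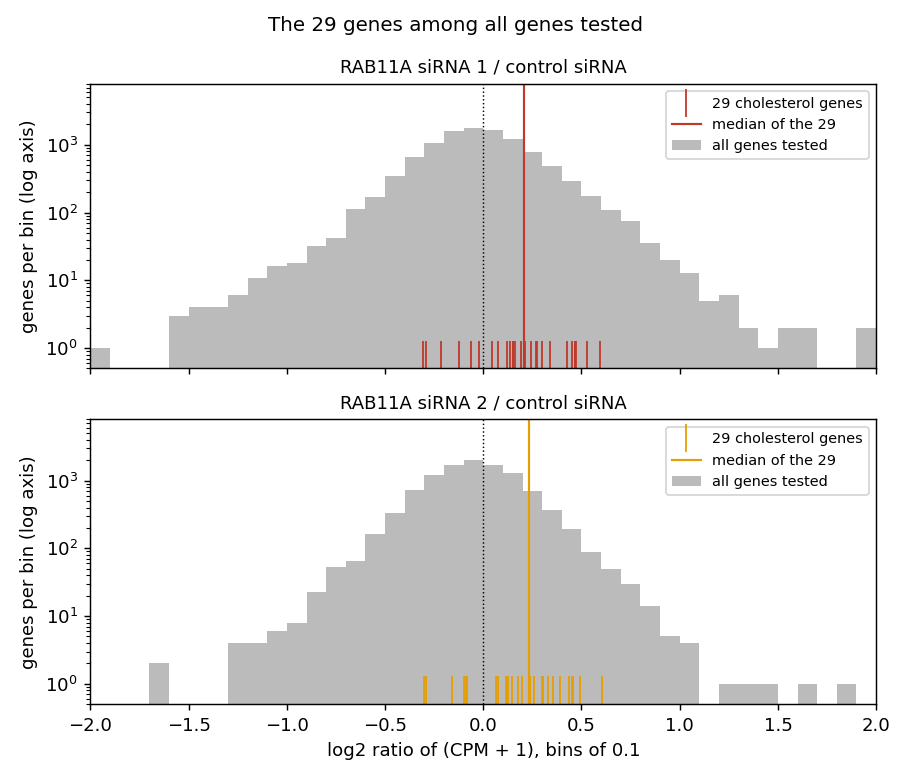
Grey bars count all 10788 genes by log2 ratio to control in bins of 0.1 (log axis, genes beyond 2 in either direction not drawn), for siRNA 1 above and siRNA 2 below, with 1 tick for each of the 29 genes. The vertical coloured lines are the medians of the 29, at 0.21 and 0.23, and no tick lies below -0.31.

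The mevalonate arm had a median ratio to control of 0.47 with siRNA 1 and 0.30 with siRNA 2. HMGCS1, the cytosolic HMG-CoA synthase, stood at 55.9 CPM with siRNA 1, 45.4 with siRNA 2 and 36.7 with control, or 152% and 124% of control. Its log2 ratio of 0.59 with siRNA 1 (SE 0.060) was the highest of the 29 and ranked 285th from the top of all genes, and with siRNA 2 it was 0.30 (SE 0.062). ACAT2, the cytosolic thiolase that joins acetyl-CoA units, stood at 131 CPM with siRNA 1, 119 with siRNA 2 and 90.6 with control. Its ratios of 0.53 and 0.39 were both past 1.3-fold, which is 0.38 on this scale. PMVK, which adds the second phosphate to mevalonate, stood at 133, 115 and 96.0 CPM with siRNA 1, siRNA 2 and control, past 1.3-fold with siRNA 1 only. For these 3 genes siRNA 1 was highest, siRNA 2 between and control lowest, and no counting intervals of the CPM values overlapped.

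MVD, which decarboxylates diphosphomevalonate, stood at 26.9 CPM with siRNA 1, 25.7 with siRNA 2 and 21.7 with control. Its ratios were 0.30 and 0.23, with an SE of 0.080 and 0.081. MVK, the mevalonate kinase, stood at 16.1, 19.5 and 15.6 CPM with siRNA 1, siRNA 2 and control. Here the siRNA 1 and control intervals overlapped (ratio 0.04, SE 0.096), while the siRNA 2 ratio was 0.31 (SE 0.093). Each of these 2 genes has 1 annotated start, of 16 searched for MVD and 17 for MVK, whose first 50 bases also match elsewhere in the genome, and tags from such a start would be uncertain. All 5 genes of this arm together stood at 363 CPM with siRNA 1, 324 with siRNA 2 and 261 with control.

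Among the isoprenoid steps, IDI1 and FDPS stood above control and GGPS1 below it. FDPS, the farnesyl diphosphate synthase that feeds both cholesterol and longer isoprenoids, lies at chr1:155278539-155290457 (GRCh37, plus strand). It was the highest expressed of the 29 in every library, at 219 CPM with siRNA 1, 223 with siRNA 2 and 158 with control, or 139% and 141% of control. Its ratios were 0.47 and 0.49, with an SE of 0.030 for each. IDI1, the isomerase that makes the starter unit of these chains, stood at 56.0 and 55.9 CPM with siRNA 1 and siRNA 2, and 47.2 with control. GGPS1 makes geranylgeranyl diphosphate, the lipid attached to RAB proteins, and stood lower, at 35.5 CPM with siRNA 1, 31.4 with siRNA 2 and 38.8 with control. The counting interval of its ratio was -0.25 to 0.002 with siRNA 1 and -0.43 to -0.17 with siRNA 2. With siRNA 2 it was the only one of the 20 enzymes below control, and its product is a longer isoprenoid, not a step towards cholesterol.

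Squalene formation and ring closure gave near-equal values with both siRNAs. SQLE, the squalene epoxidase and a slow step of the pathway, stood at 143 CPM with either siRNA and 104 with control, both ratios 0.45 (SE 0.037). FDFT1, the squalene synthase that commits carbon to sterols, stood at 92.2 CPM with siRNA 1, 92.1 with siRNA 2 and 84.7 with control, both ratios 0.12 (SE 0.043). LSS, which closes the sterol rings, stood at 46.8, 45.6 and 42.0 CPM with siRNA 1, siRNA 2 and control. The counting interval of its ratio with siRNA 2 reached 0, at -0.002 to 0.23. Of the 3 genes, only SQLE was past 1.3-fold, and it was so with either siRNA.

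From lanosterol to cholesterol, 8 of 9 genes were above control with siRNA 1 and 9 of 9 with siRNA 2. CYP51A1, the demethylase that acts first on lanosterol, stood at 184 CPM with siRNA 1, 208 with siRNA 2 and 152 with control. Its ratio was 0.27 with siRNA 1 and 0.45 with siRNA 2 (SE 0.031 each), so siRNA 2 was the higher of both. One of its 5 annotated starts also matches the pseudogenes CYP51A1P1 and CYP51A1P2. EBP, the sterol isomerase, stood at 104 CPM with siRNA 1, 102 with siRNA 2 and 75.0 with control, with ratios of 0.46 and 0.44 (SE 0.043 each). MSMO1, the methylsterol oxidase, stood at 118, 112 and 87.7 CPM with siRNA 1, siRNA 2 and control, with ratios of 0.42 and 0.36. DHCR7, which makes cholesterol from 7-dehydrocholesterol, stood at 111 CPM with siRNA 1, 116 with siRNA 2 and 91.9 with control. For EBP, MSMO1 and DHCR7 the intervals of both siRNA libraries overlapped each other and lay above that of control.

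LBR and TM7SF2 encode alternative sterol C14 reductases, LBR being also a lamin receptor of the nuclear envelope. LBR stood at 74.9 CPM with siRNA 1, 73.0 with siRNA 2 and 59.0 with control, with ratios of 0.34 and 0.30. TM7SF2 stood at 5.92 CPM with siRNA 1 (148 tags), 11.2 with siRNA 2 (281 tags) and 7.04 with control (176 tags). With siRNA 1 it was, with GGPS1, 1 of 2 enzymes below control, with a ratio of -0.22 (counting interval -0.49 to 0.06). With siRNA 2 its ratio was 0.61 (0.36 to 0.85), the highest of the 29 there. TM7SF2 overlaps VPS51 on the same strand. VPS51 stood at 54.4, 59.4 and 62.8 CPM with siRNA 1, siRNA 2 and control, and its part in the TM7SF2 values was not tested.

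Of the lanosterol steps, NSDHL, SC5D and HSD17B7 remain. NSDHL, which removes the C4 carboxyl group, stood at 58.4 CPM with siRNA 1, 54.9 with siRNA 2 and 52.4 with control, and its siRNA 2 interval overlapped that of control. SC5D, the sterol C5 desaturase, stood at 88.3, 84.3 and 76.1 CPM with siRNA 1, siRNA 2 and control, with ratios of 0.21 and 0.15 (SE 0.045 each). HSD17B7, the 3-ketosteroid reductase, stood at 7.92 CPM with siRNA 1, 7.72 with siRNA 2 and 6.72 with control, with overlapping intervals. Of its 9 annotated starts 6 match its pseudogene HSD17B7P2 or PLD5P1, so its level is uncertain. HSD17B7P2 stood at 28.2, 27.1 and 19.9 CPM with siRNA 1, siRNA 2 and control. The sum of HSD17B7 and HSD17B7P2 was 36.2 CPM with siRNA 1, 34.8 with siRNA 2 and 26.6 with control.

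**Figure D4:**
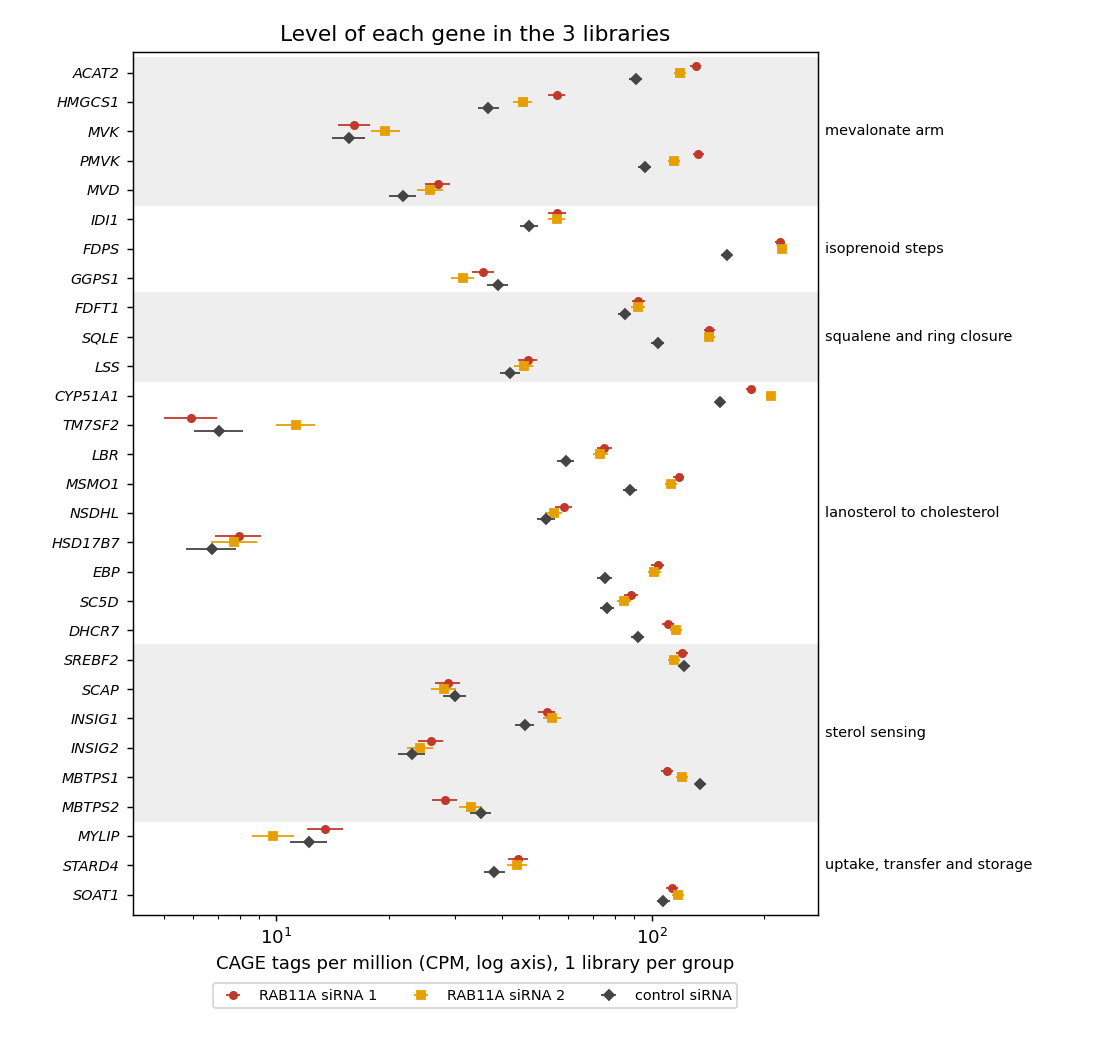
CPM on a log axis for each of the 29 genes in the RAB11A siRNA 1 (circles), RAB11A siRNA 2 (squares) and control siRNA (diamonds) libraries, with 95% Poisson intervals, ordered by pathway step. The genes run from 6.72 CPM for HSD17B7 to 158 CPM for FDPS in the control library.

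Sterol sensing genes showed no common direction. SREBF2, which encodes SREBP2, stood at 120.4 CPM with siRNA 1, 115 with siRNA 2 and 122 with control, with ratios of -0.02 and -0.09 (SE 0.037 each). The interval of its ratio included 0 with siRNA 1 (-0.09 to 0.05) and lay just below 0 with siRNA 2 (-0.16 to -0.01). After TMM scaling the SREBF2 ratios were 0.01 and -0.04, so its direction with siRNA 1 depended on the scaling. SCAP, its escort, stood at 28.6, 27.9 and 29.9 CPM with siRNA 1, siRNA 2 and control, and all 3 intervals overlapped. One of the 12 annotated SCAP starts matches many other places in the genome. INSIG1 and INSIG2 encode the ER anchors, of which INSIG1 is itself induced by SREBP. INSIG1 stood at 52.5 CPM with siRNA 1, 54.2 with siRNA 2 and 45.9 with control, with ratios of 0.19 and 0.24 (SE 0.057 each). INSIG2 stood at 25.8, 24.2 and 22.96 CPM with siRNA 1, siRNA 2 and control, and its ratios were 0.16 (SE 0.080) and 0.07 (SE 0.081). The 3 INSIG2 intervals overlapped, while the INSIG1 control lay below both siRNA libraries.

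Both Golgi proteases stood below control with either siRNA, and neither reached 1.3-fold. MBTPS1, the site-1 protease that makes the first cut in SREBP, lies at chr16:84087366-84150547 (GRCh37, minus strand). It stood at 110.1 CPM with siRNA 1, 121 with siRNA 2 and 135 with control, and none of the 3 intervals overlapped. Its ratios were -0.29 and -0.16. MBTPS2, the site-2 protease that makes the second cut within the membrane, stood at 28.1 CPM with siRNA 1, 33.0 with siRNA 2 and 35.0 with control. The ratio was -0.31 with siRNA 1 (SE 0.071), the lowest of the 29, and -0.08 with siRNA 2 (SE 0.068), whose interval included 0.

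Uptake, transfer and storage were each represented by 1 gene. MYLIP, a ubiquitin ligase that marks lipoprotein receptors for degradation, stood at 13.5 CPM with siRNA 1, 9.80 with siRNA 2 and 12.2 with control. Its ratio was 0.13 with siRNA 1 (SE 0.106) and -0.29 with siRNA 2 (SE 0.113). STARD4, a cytosolic sterol carrier, stood at 44.1, 43.8 and 38.1 CPM with siRNA 1, siRNA 2 and control, with ratios of 0.21 and 0.20 (SE 0.062 each). SOAT1, which esterifies cholesterol for storage, stood at 113 CPM with siRNA 1, 118 with siRNA 2 and 108 with control. None of these 3 was past 1.3-fold from control.

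**Figure D5:**
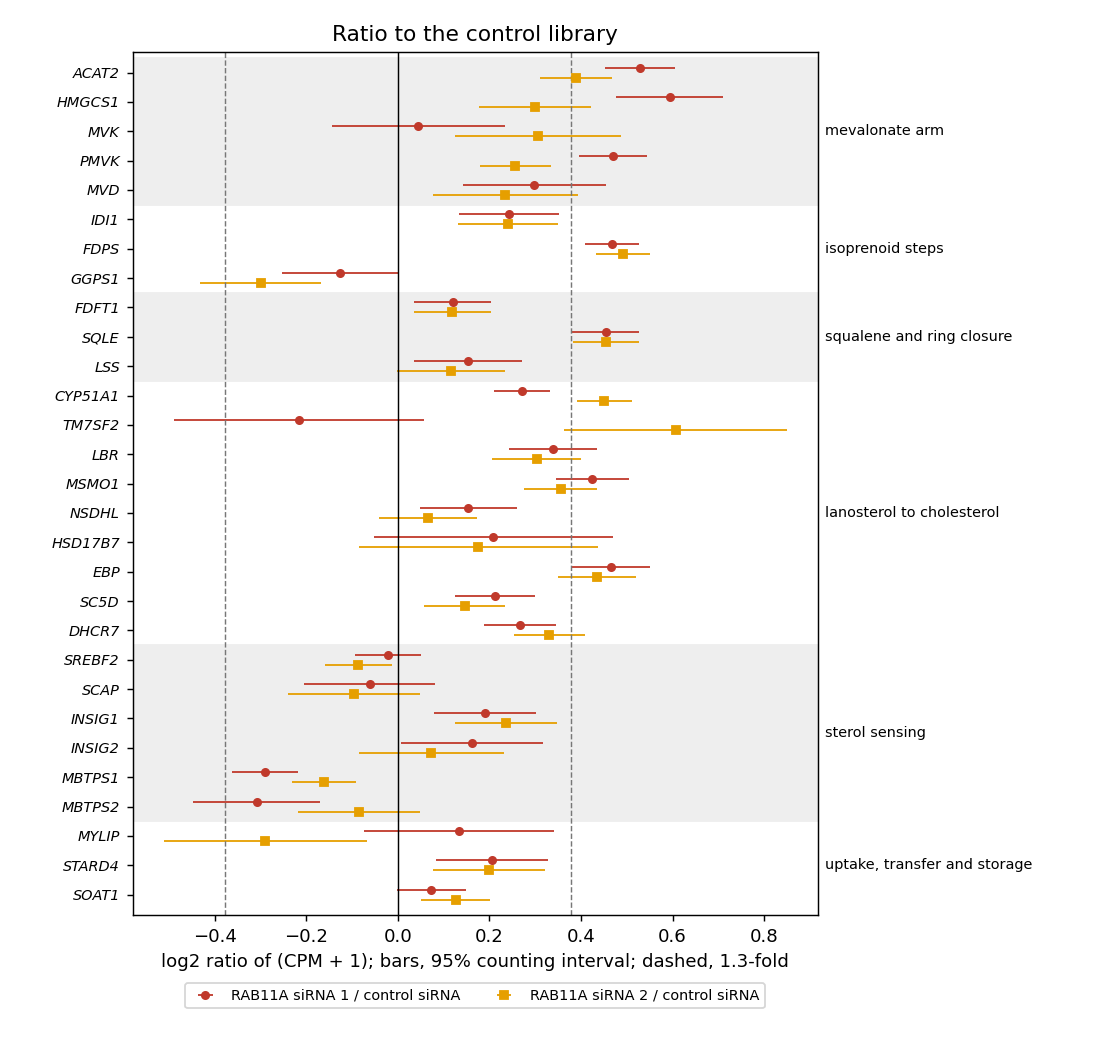
Log2 ratio of (CPM + 1) to control siRNA for RAB11A siRNA 1 (circles) and RAB11A siRNA 2 (squares), with 95% counting intervals and dashed lines at 1.3-fold, for the 29 genes by pathway step. Past the right dashed line lie 7 circles and 6 squares, all of them enzymes, and past the left one none.

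A comparison of siRNA 1 with siRNA 2 leaves out the control library. The median log2 ratio of siRNA 1 to siRNA 2 over the 29 genes was 0.03, against 0.02 over all genes, and 19 of the 29 were above 0, where 55% of all genes were. At least 1.3-fold higher with siRNA 1 was 1 of the 29, MYLIP, where 4.01% of all genes were, and at least 1.3-fold lower was 1, TM7SF2, where 2.63% were. Of all genes 0.167% were 2-fold higher and 0.185% lower, and none of the 29 was. The MYLIP ratio was 0.42 (SE 0.111) and the TM7SF2 ratio -0.82 (SE 0.129), both at low tag counts. The counting interval lay above 0 for 5 of the 29 (26.1% of all genes), namely ACAT2 (0.14), HMGCS1 (0.29), PMVK (0.21), GGPS1 (0.17) and MYLIP. It lay below 0 for 5 (18.6%), namely MVK (-0.26), CYP51A1 (-0.18), TM7SF2, MBTPS1 (-0.13) and MBTPS2 (-0.22). For SQLE, FDFT1 and IDI1 the ratio was 0.00, with counting intervals of -0.07 to 0.07, -0.08 to 0.08 and -0.10 to 0.11. RAB11A was lower with siRNA 1 than with siRNA 2 (ratio -1.48), and only 1 library of each exists, so a relation to the depth of knockdown was not tested.

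Baseline levels in the control library spanned FDPS at 158 CPM (153.5 to 163 CPM) and CYP51A1 at 152 CPM (147 to 157) down to HSD17B7 at 6.72 (5.74 to 7.82). FDPS and CYP51A1 overlapped, and both lay above MBTPS1 at 135 CPM. Next came SREBF2 at 122 CPM, which overlapped neither MBTPS1 nor SOAT1 at 108 CPM. From SOAT1 down, each gene overlapped the next as far as FDFT1, and SC5D and EBP overlapped each other below it. The enzymes of the mevalonate arm were unequal, with PMVK and ACAT2 above 90 CPM and MVK at 15.6 CPM.

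Among the 26 genes with promoter windows, the 19 with a CCAAT box had median ratios to control of 0.21 with siRNA 1 and 0.23 with siRNA 2. The 7 without one had medians of 0.16 and 0.07. Those 7 were the enzymes PMVK, CYP51A1 and LBR, all above control, and the sterol sensing genes SCAP, INSIG2, MBTPS1 and MBTPS2. The 19 with a box were mostly enzymes, so the medians compare unlike kinds of gene. The ranges overlapped. With siRNA 1 the ratios spanned -0.22 to 0.59 with a box and -0.31 to 0.47 without. With siRNA 2 they spanned -0.30 to 0.61 and -0.16 to 0.45. The comparison is a description and was not tested.

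Other genes around the pathway were described in 5 lists, whose counts are read against the shares of all genes given above, 7.79% higher and 8.27% lower with siRNA 1 and 4.26% higher and 7.3% lower with siRNA 2. In these lists, measured genes are those averaging 5 CPM or more. The 12 measured genes of acetyl-CoA supply and fatty acid synthesis had median ratios of -0.01 with siRNA 1 and 0.07 with siRNA 2. At least 1.3-fold higher was 1 of the 12 with either siRNA, and lower were 2 with siRNA 1 and 1 with siRNA 2. FADS2, a fatty acid desaturase, stood at 199 CPM with siRNA 1, 186 with siRNA 2 and 129 with control. SREBF1, which encodes the SREBP1 factors that favour fatty acid genes, stood at 76.9, 93.0 and 129.6 CPM with siRNA 1, siRNA 2 and control, with ratios of -0.75 and -0.48. The related SREBF2 had ratios of -0.02 and -0.09. FASN, the fatty acid synthase, stood at 126, 136 and 127 CPM with siRNA 1, siRNA 2 and control.

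The 13 measured genes that use mevalonate products for prenylation, dolichol or ubiquinone had medians of -0.03 with siRNA 1 and 0.06 with siRNA 2. At least 1.3-fold higher were 2 of the 13 with siRNA 1 and 1 with siRNA 2, and lower were 0 with siRNA 1 and 1, CHM, with siRNA 2. COQ2, which prenylates the ubiquinone ring, stood at 19.4 CPM with siRNA 1, 17.3 with siRNA 2 and 13.04 with control. The 9 measured genes of lipoprotein reception and lysosomal cholesterol export had medians of -0.03 and -0.09. VLDLR of this list fell under the minimum mean, at 1.56 CPM with siRNA 1, 1.52 with siRNA 2 and 2.8 with control. At least 1.3-fold higher were 2 of the 9 with siRNA 1 and 1 with siRNA 2, and lower were 1 with siRNA 1 and 0 with siRNA 2. TMEM97, a sterol-regulated membrane protein, stood at 33.4, 30.7 and 19.6 CPM with siRNA 1, siRNA 2 and control, or 170% and 157% of control. Its ratios of 0.74 (SE 0.079) and 0.62 (SE 0.080) compare with 0.59 for HMGCS1 with siRNA 1 and 0.61 for TM7SF2 with siRNA 2. The 7 measured genes of efflux, oxysterol sensing and sterol transfer had medians of -0.10 and -0.08, and 0 were 1.3-fold higher with either siRNA. They did not include the efflux transporters ABCA1 and ABCG1, which, with GRAMD1B and CH25H, matched no symbol in the values used here. At least 1.3-fold lower were 0 of the 7 with siRNA 1 and 2, OSBP and OSBPL9, with siRNA 2. The 10 genes of sterol-regulated degradation and SREBP cofactors, which hold SREBF1 again, had medians of -0.14 and -0.11, and also 0 that were 1.3-fold higher. At least 1.3-fold lower were 1 of the 10, SREBF1, with siRNA 1 and 3, SREBF1, ERLIN2 and NFYA, with siRNA 2.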

How the data were processed

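One CAGE library per group came from EBC-1 total RNA, for 3 groups, and the labels give 72 h after plating for the electroporation. The authors deposited CPM per gene and strand, 1 column per library. The submitters' processing notes name BWA, HISAT2 and the build hg19. The sources used here do not give their roles, versions, the counter, the annotation, filters or how multiply mapping reads were treated. Every listed gene reached 0.52 CPM in at least 1 library.

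In the deposited CPM, 100% of values lay within 0.01 CPM of a multiple of 0.04, which gave whole tag counts. The sum of tags over all listed genes was 25204585 for siRNA 1, 25137457 for siRNA 2 and 25174787 for control, slightly above the library totals that CPM implies. A count of 0 tags allows up to 0.12 CPM (3 tags). Log2 ratios of (CPM + 1) were taken for genes averaging 5 CPM or more and called at 1.3-fold and 2-fold. A pseudocount of 1 CPM understates the change of low genes. SEs rest on Poisson counting and intervals are 95%. The sources do not say whether tags are separate molecules.

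The members and lists were chosen with earlier results of these data known. Named were all members, RAB11A, marker genes, and genes of the 5 other lists past 1.3-fold on the same side with both siRNAs. FASN, genes lower in a list with 1 siRNA, and genes named for overlap or copies were added after their values were seen. Copies were searched with minimap2 2.31, from the first 50 bases of GENCODE starts on GRCh37, allowing 2 mismatches over at least 45 bases. Of the 29 genes, 5 had a start with a copy. Promoters came from RefSeq (GRCh38.p14), matched by symbol. Alternatives were other pseudocounts and minimum means, TMM (edgeR 4.0.16) and median-ratio scaling, an exact binomial test on tags, and limma 3.58.1 in R 4.3.3. Other steps used scipy 1.17.1, pandas 2.3.3, numpy 2.4.6 and matplotlib 3.10.9 under Python 3.11.15.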

Additional observations from a re-analysis of the deposited data

How the results depend on the processing

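Counts of members past 1.3-fold from control stayed within 1.5 times of those reported with 0.5 or 5 CPM as pseudocount, with TMM or median-ratio scaling, with no filter or a minimum mean of 1 or 20 CPM, and, in an alternative chosen after seeing the data, over the 24 members with no copy of a start. The median ratio to control was 0.18 with siRNA 1 and 0.20 with siRNA 2 at a pseudocount of 5 CPM, and stood at 0.28 with siRNA 2 under either scaling. Between siRNA 1 and siRNA 2, 0 members were 1.3-fold higher at a pseudocount of 5 CPM, and 0 were higher and 0 lower at a minimum mean of 20 CPM, which leaves out MYLIP and TM7SF2. Of all genes, 2.68% were 1.3-fold higher with siRNA 2 at a pseudocount of 5 CPM, against 4.26% in the main setting, and 4.49% against 7.3% were lower. With siRNA 1 5.37% against 8.27% were lower, and between siRNA 1 and siRNA 2 2.27% against 4.01% were higher and 1.46% against 2.63% lower. In further alternatives chosen after seeing the data, the summed level of the enzymes was 129.5% of control with siRNA 1 and 129.8% with siRNA 2 under either scaling. That of the sterol sensing genes was 99.3% (TMM) and 99.2% (median-ratio) with siRNA 2, and without MBTPS1 it was 99.8% with siRNA 1 and 99.3% with siRNA 2. In limma, FDPS had the lowest adjusted p among members, 0.16. No paired analysis was possible because each group has 1 library. Counts of members on the same side in both siRNA libraries were not run, because both ratios share the control library, and no library could be left out. Median counting SE of a log2 ratio over all genes was 0.071, which covers no spread between cultures.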

Other observations

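Some genes of the neighbouring lists differed from control more with 1 siRNA than with the other, and they were named after their values were seen. OSBP, a protein that exchanges sterol for a phosphoinositide at the Golgi, stood at 36.6 CPM with siRNA 1, 26.7 with siRNA 2 and 45.4 with control, with log2 ratios of -0.30 and -0.75. CHM, the RAB escort protein that presents RAB proteins for prenylation, stood at 33.0, 29.1 and 41.4 CPM with siRNA 1, siRNA 2 and control, with ratios of -0.32 and -0.50. NFYA, a subunit of the factor that binds CCAAT boxes, stood at 23.1 CPM with siRNA 1, 19.8 with siRNA 2 and 28.6 with control. ERLIN2, an ER protein of sterol-regulated degradation, stood at 23.1, 18.9 and 28.04 CPM with siRNA 1, siRNA 2 and control. These genes lay farther from control with siRNA 2, while ME1 and LIPA lay farther from it with siRNA 1. ME1, the cytosolic malic enzyme, stood at 20.4 CPM with siRNA 1, 30.04 with siRNA 2 and 29.3 with control. LIPA, the lysosomal lipase that frees cholesterol from lipoprotein esters, stood at 103 CPM with siRNA 1, 72.8 with siRNA 2 and 77.5 with control. These differences between the siRNAs were not tested, since each has 1 library.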
